A study of Homo sapiens with 12 samples.

Results

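The miR-200 family is a group of microRNA (miRNA) encoded in 2 genomic clusters. The miR-200b cluster on chromosome 1 holds miR-200b, miR-200a and miR-429, and the miR-200c cluster on chromosome 12 holds miR-200c and miR-141. Its members were taken by name from the miRNA count table of a small RNA sequencing experiment, which lists 8 of them among 1133 miRNA, and 7 were used. The miR-200b cluster gave 5 members (hsa-miR-200b-3p, hsa-miR-200a-3p, hsa-miR-429, hsa-miR-200b-5p and hsa-miR-200a-5p) and the miR-200c cluster gave 2 (hsa-miR-200c-3p and hsa-miR-141-3p), where the prefix hsa stands for human and is left out from here on. Of the remaining arms, miR-141-5p had 7 counts in a single library and was not used, and miR-200c-5p was not listed.

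The experiment followed extracellular vesicles (EV), membrane particles that cells release, along the differentiation of human induced pluripotent stem cells (hiPSC) into cardiomyocytes. EV were isolated from conditioned medium at 4 stages, giving hiPSC-EV, EV of cardiac progenitor cells (CPC-EV), EV of immature cardiomyocytes (CMi-EV) and EV of more mature cardiomyocytes (CMm-EV), with 3 independent cultures per group. hiPSC-EV came from day 0, with 24 h of conditioning in the expansion medium TeSR-E8. CPC-EV came from day 6, with 72 h of conditioning in RPMI with B27 lacking insulin and with the Wnt inhibitor IWR1, after the Wnt pathway activator CHIR99021 with Activin A and ascorbic acid, and then IWR1 with ascorbic acid. CMi-EV came from day 15, with 48 h of conditioning by cell aggregates in RPMI with B27. CMm-EV came from day 35, also with 48 h of conditioning, after culture of the aggregates in a medium that had galactose, oleic acid and palmitic acid in place of glucose. All libraries derive from 1 established line, iPS(IMR90)-4, which limits them as a model to 1 genetic background. Medium changed with every stage, conditioning time changed up to day 15, and culture went from monolayers to aggregates between CPC-EV and CMi-EV, so the parts of these changes and of the stage cannot be told apart where they coincide.

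Counts on miRNA ranged from 703418 to 5598296 per library in hiPSC-EV, from 1539043 to 3380609 in CPC-EV, from 1364736 to 2163511 for CMi-EV and from 984868 to 6272456 for CMm-EV. Levels are given as CPM, in which a count is scaled to all miRNA counts of its library and normalized by TMM (the trimmed mean of M-values). Where a library has no count of a member, levels of up to 3 counts would be missed, equal to 3.48 CPM in hiPSC-EV 1, 1.12 CPM in CPC-EV 3, 1.32 CPM for CMi-EV 1 and 0.796 CPM for CMm-EV 2. Such limits, and all intervals given here, cover counting error only.

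A miRNA guides Argonaute proteins to messenger RNA that pair with its seed, a short stretch near its 5′ end, and lowers the output of these messengers. miR-200 family members are known as keepers of the epithelial state. They repress the transcription factors ZEB1 and ZEB2, which in turn repress the miR-200 clusters and the adhesion gene CDH1, and pluripotent stem cells, which grow as an epithelium, pass through an epithelial-to-mesenchymal transition when they form mesoderm.

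All 7 members were matched by name in RefSeq (build GRCh38.p14), and their mature sequences are shown because the comparisons between members turn on which of them share a seed. The sequences run 5′ to 3′, and capitals mark the seed, bases 2 to 8. The miR-200b seed group has 3 members.
miR-200b-3p: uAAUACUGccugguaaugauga
miR-200c-3p: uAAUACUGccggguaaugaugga
miR-429: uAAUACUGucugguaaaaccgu

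The miR-200a seed group has 2 members, and again each cluster contributes to it.
miR-200a-3p: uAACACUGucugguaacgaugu
miR-141-3p: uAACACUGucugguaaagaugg

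The 2 members from the 5p arms share a seed of their own.
miR-200b-5p: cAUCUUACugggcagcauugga
miR-200a-5p: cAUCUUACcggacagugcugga

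Substitutions are written with the first miRNA's base, its position from the 5′ end and the second miRNA's base. miR-200b-3p and miR-200c-3p, 22 and 23 bases long, differ at 2 of the 22 positions compared (U11G and A22G), both outside the seed. miR-200a-3p and miR-141-3p also differ at 2 of 22 positions (C17A and U22G). The 2 seeds differ by a single base, U4C from miR-200b-3p to miR-200a-3p and again from miR-200c-3p to miR-141-3p. miR-429 shares its seed with miR-200b-3p but differs from it at 6 positions beyond the seed.

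The mature miRNA of the first cluster lie on the plus strand at chr1:1167160-1167181 (miR-200b-3p), chr1:1167124-1167145 (miR-200b-5p), chr1:1167916-1167937 (miR-200a-3p), chr1:1167878-1167899 (miR-200a-5p) and chr1:1169055-1169076 (miR-429). Their 3 precursors span 1984 bases and overlap no gene of GENCODE 44 other than their own, between the coding genes C1orf159 and TTLL10. miR-200c-3p lies at chr12:6963742-6963764 and miR-141-3p at chr12:6964155-6964176, both on the plus strand. These 2 precursors span 493 bases inside the long noncoding RNA gene MIR200CHG, on its strand and outside its annotated exons, between the coding genes PTPN6 and PHB2.

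miR-200b-3p was the most abundant member in EV from hiPSC, CPC and CMi by mean level. It measured 2557, 2419 and 2922 CPM in the hiPSC-EV libraries, and 5263, 6711 and 3358 CPM in the CPC-EV libraries. In CMi-EV it measured 172, 155 and 104 CPM, and in CMm-EV 6.07, 0 and 10.3 CPM, from 5, 0 and 26 counts. CPC-EV libraries were thus the highest and CMm-EV libraries the lowest, and no groups overlapped. Group means were 2632 ± 260 CPM (SD, n = 3) in hiPSC-EV, 5111 ± 1682 CPM in CPC-EV, 144 ± 35.8 CPM for CMi-EV and 5.44 ± 5.16 CPM for CMm-EV. By mean CPM miR-200b-3p ranked 38th among all miRNA in hiPSC-EV, 22nd in CPC-EV, 127th for CMi-EV and 336th for CMm-EV.

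miR-200c-3p, its counterpart with the same seed in the other cluster, measured 1514, 1848 and 2576 CPM in hiPSC-EV, and 549, 593 and 199 CPM in CPC-EV. It measured 57.8, 45.7 and 44.9 CPM in CMi-EV, and in CMm-EV 1 it had 1 count, with none in the other CMm-EV libraries. Unlike those of miR-200b-3p, its levels were highest in hiPSC-EV and lower at each later stage, again without overlap between groups. The group means were 1979 ± 543 CPM, 447 ± 216 CPM and 49.5 ± 7.21 CPM for hiPSC-EV, CPC-EV and CMi-EV, and its rank by mean CPM was 43rd, 79th and 191st in the same order.

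miR-141-3p, the cluster partner of miR-200c-3p, measured 245, 196 and 297 CPM in hiPSC-EV, and 96.3, 98.2 and 75.1 CPM in CPC-EV. It measured 0, 27.3 and 53.6 CPM in CMi-EV, and in CMm-EV it had 30 counts (11.8 CPM) in library 3 and none in libraries 1 and 2. Its group means had the order of those of miR-200c-3p, and hiPSC-EV, CPC-EV and CMi-EV did not overlap, whereas CMi-EV 1 lay below CMm-EV 3.

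miR-200a-3p, which has the seed of miR-141-3p but sits in the first cluster, measured 129, 94.2 and 103 CPM in hiPSC-EV, and 147, 118 and 11.2 CPM in CPC-EV. It measured 0, 23.1 and 94.9 CPM in CMi-EV, and it had no counts in CMm-EV. hiPSC-EV, CPC-EV and CMi-EV overlapped, and the group means of 109 ± 18.1, 91.9 ± 71.4 and 39.3 ± 49.5 CPM did not differ beyond the spread between libraries.

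The 3 other members were found mainly in EV of the early stages, and were at 0 in some of these libraries. miR-429 had 0, 72 and 231 counts in hiPSC-EV and 304, 404 and 0 counts in CPC-EV. miR-200b-5p had 36, 49 and 203 counts in hiPSC-EV and 205, 907 and 0 counts in CPC-EV. Neither had a count in CMi-EV or CMm-EV. miR-200a-5p had 42 counts in hiPSC-EV 3, 120 and 54 counts in CPC-EV 2 and CPC-EV 3, and 41 counts in CMi-EV 3, and was at 0 in the other libraries.

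Some of these zeros fell in libraries that were not shallow. CPC-EV 3, with 1539043 miRNA counts, had no count of miR-429 or miR-200b-5p, whereas CPC-EV 1, with 1680155, had 304 and 205. CMi-EV 1, the deepest library of its group, had no count of miR-200a-3p or miR-141-3p. Both libraries held few miRNA with 5 to 19 counts, though not with 1 to 4 counts (20 in CPC-EV 3 and 23 in CMi-EV 1, against 20 and 29 in the other CPC-EV and 22 and 16 in the other CMi-EV libraries). In CPC-EV 3, 9 miRNA had 5 to 19 counts, against 26 in CPC-EV 1 and 20 in CPC-EV 2, and in CMi-EV 1 there were 10, against 20 in each of the other CMi-EV libraries. The part of this difference in the zeros of the family was not tested.

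**Figure D1:**
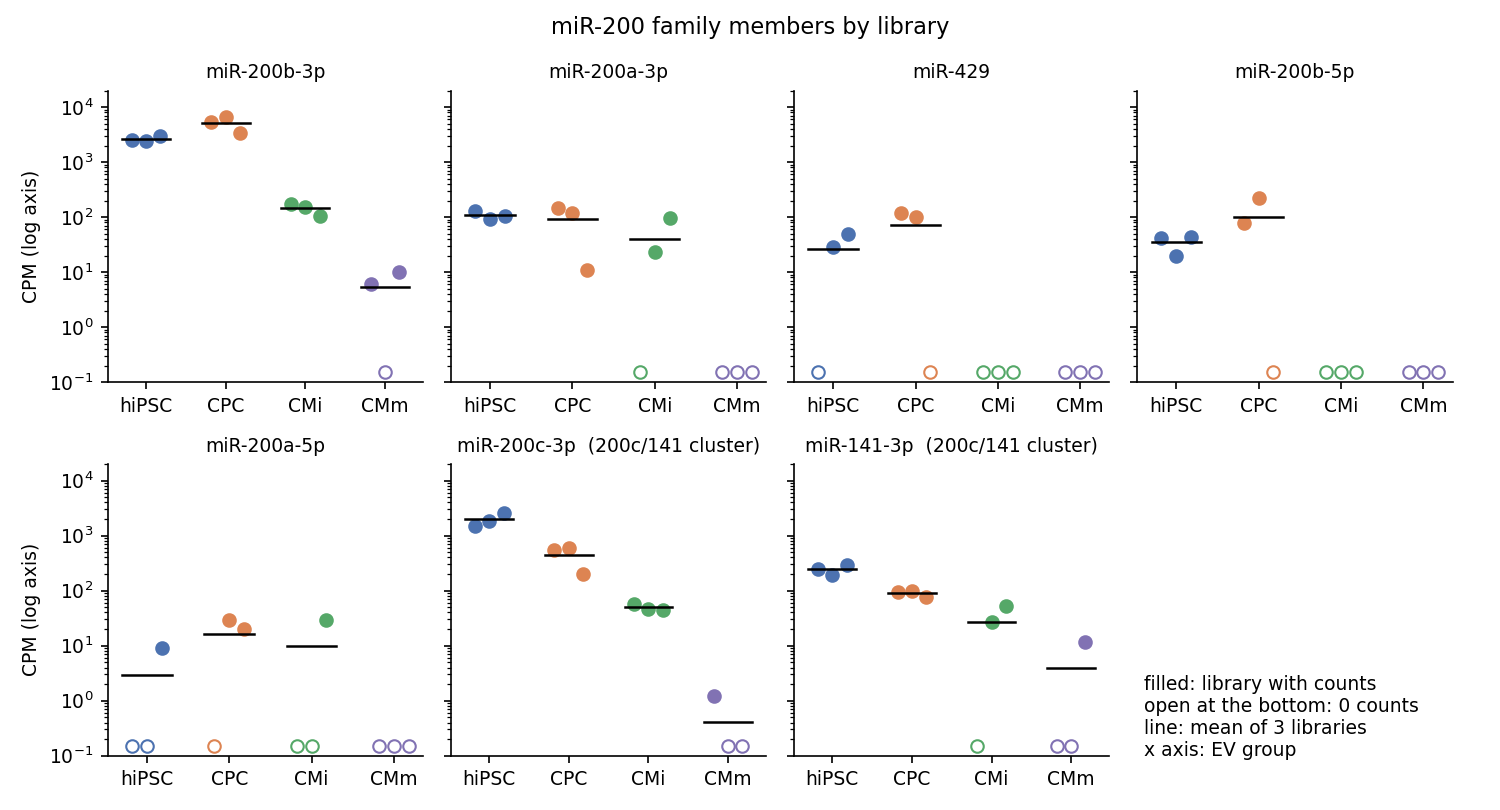
Levels of the 7 members in each of the 12 libraries, as TMM-normalized CPM on a log axis, by EV group on the x axis, with filled points for libraries with counts, open points at the bottom for libraries with 0 counts and lines for group means. miR-200b-3p is highest in CPC-EV, with 3358 to 6711 CPM, whereas miR-200c-3p and miR-141-3p are highest in hiPSC-EV.

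Between day 0 and day 6, the leading members of the 2 clusters moved in opposite directions. miR-200b-3p rose in CPC-EV, with a log2 fold change of 1.35 (SE 0.24, edgeR FDR 0.00604, n = 3 per group), and miR-200c-3p fell, with a log2 fold change of -1.74 (SE 0.39, FDR 0.0130). All 3 CPC-EV libraries lay above all hiPSC-EV libraries for the first, and below them for the second. In these EV samples, fewer vesicles or fewer cells of a type and less of a miRNA per vesicle or per cell cannot be told apart, here or in any comparison that follows. miR-141-3p had a log2 fold change of -1.04 (SE 0.38, FDR 0.0824), miR-200a-3p of 0.13 (SE 0.84, FDR 0.928) and miR-200b-5p of 1.85 (SE 1.54, FDR 0.456), and none of them passed the test.

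Members were tested where all 3 libraries of either group reached 5 CPM, and a call required an FDR of 0.05 and a change of at least 1 on the log2 scale. Between CPC-EV and hiPSC-EV, 5 of the 7 members were tested and 2 were called, where 27.5% of the 338 tested miRNA were called. The single member called higher compares with 11.5% of all tested miRNA, and the single member called lower with 16.0%. A member that passed the filter only through the group where it is high had to differ, so counts among the tested members give no support for a change of the family. Gene lists further on passed the same filter, so counts and medians of their tested genes give no support for a change of a list. With dispersions from all 12 libraries, miR-200b-3p kept its log2 fold change but lost the call (FDR 0.258), and without CPC-EV 3 miR-200b-5p was called higher (log2 fold change 2.50, FDR 0.0391). With a term for the replicate number, miR-200c-3p lost its call (FDR 0.0898). Over all alternatives, the FDR ranged from 2.42e-07 to 0.258 for miR-200b-3p, from 0.000217 to 0.0898 for miR-200c-3p and from 0.0391 to 0.876 for miR-200b-5p.

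The opposite movement changed the make-up of the family. Of the family's counts, the miR-200c cluster held 39.2% (95% exact binomial interval 37.7% to 40.8%), 44.4% (43.5% to 45.3%) and 47.9% (47.3% to 48.5%) in the hiPSC-EV libraries. In the CPC-EV libraries it held 10.3% (9.86% to 10.8%), 8.78% (8.47% to 9.09%) and 7.48% (6.97% to 8.02%). Its share was higher again in the CMi-EV libraries, at 25.1% (21.4% to 29.05%), 29.02% (24.99% to 33.3%) and 30.2% (25.95% to 34.6%). The 3 groups did not overlap. In CMm-EV 3 the share was 53.6% of only 56 counts (39.7% to 67.0%), CMm-EV 1 had 6 family counts in all, and CMm-EV 2 had none.

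**Figure D2:**
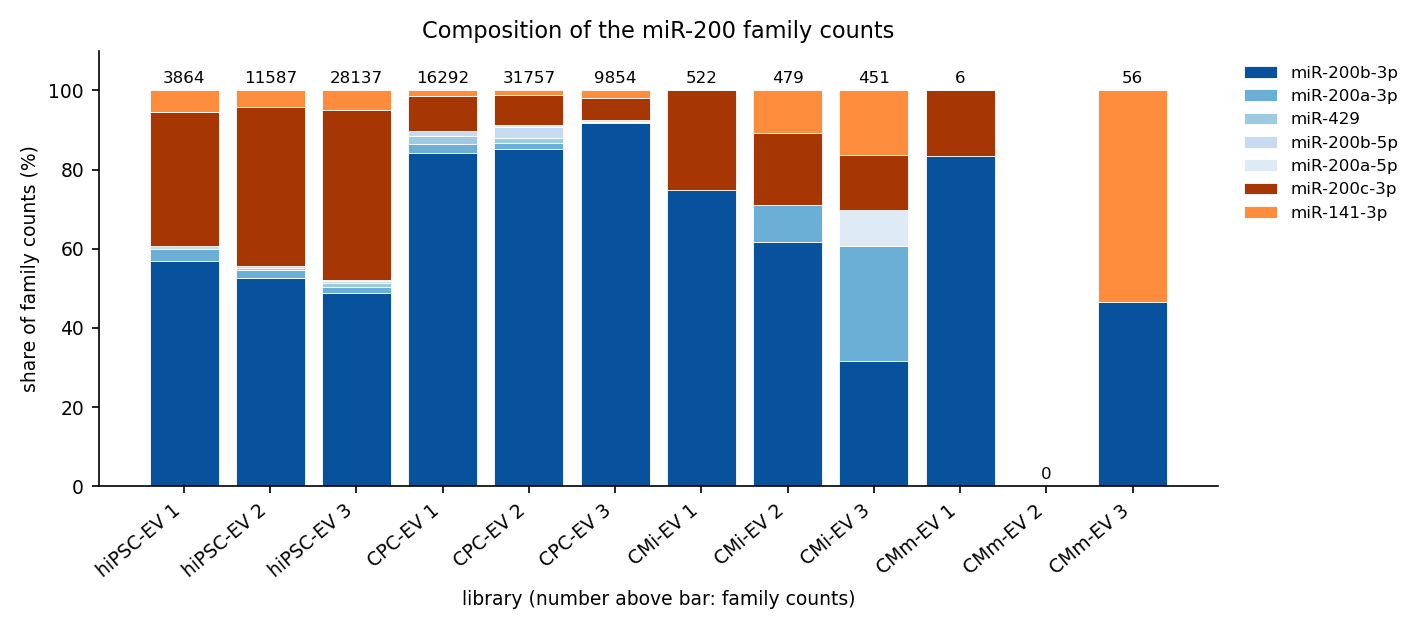
Share of each member in the counts of the miR-200 family (y axis, percent) in each of the 12 libraries (x axis), with the family's counts above each bar, blue for the miR-200b cluster and red and orange for the miR-200c cluster. The miR-200c cluster holds 39.2% to 47.9% in hiPSC-EV and 7.48% to 10.3% in CPC-EV.

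A ratio of 2 members within a library does not depend on how libraries are scaled. The log2 ratio of miR-200c-3p to miR-200b-3p was -0.76, -0.39 and -0.18 in hiPSC-EV, -3.26, -3.50 and -4.08 in CPC-EV, and -1.57, -1.76 and -1.20 in CMi-EV. The 3 groups did not overlap, with CPC-EV lowest and CMi-EV between the others. In counts, miR-200b-3p outnumbered miR-200c-3p by 1.13-fold to 1.69-fold in hiPSC-EV, by 9.59-fold to 16.9-fold in CPC-EV and by 2.31-fold to 3.40-fold in CMi-EV. The means were -0.44 ± 0.29, -3.61 ± 0.42 and -1.51 ± 0.29, and an exact permutation test over these 9 libraries gave p = 0.00357, the smallest that this design allows, or 0.0250 after adjustment over the 7 ratios tested. CMm-EV was left out because only 1 of its libraries had 10 counts or more of the pair.

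The other pair with a common seed did not differ in this test. The log2 ratio of miR-141-3p to miR-200a-3p was 0.92, 1.05 and 1.53 in hiPSC-EV, -0.61, -0.26 and 2.73 in CPC-EV, and 0.24 and -0.82 in CMi-EV 2 and CMi-EV 3 (exact permutation p = 0.475, adjusted p = 0.905, 8 libraries). CPC-EV 3, where miR-200a-3p had 30 counts, stood above the hiPSC-EV libraries, and the other CPC-EV libraries stood below them. The mean moved by -0.55 from hiPSC-EV to CPC-EV, and by 0.07 without CPC-EV 1, so its direction rests on single libraries.

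Within clusters, miR-200c-3p exceeded miR-141-3p by 6.18-fold to 9.45-fold in hiPSC-EV and by 2.65-fold to 6.04-fold in CPC-EV, and the counts were 131 to 0, 87 to 52 and 62 to 74 in the CMi-EV libraries. miR-200b-3p exceeded miR-200a-3p by 19.8-fold to 28.4-fold in hiPSC-EV and by 35.8-fold to 301.1-fold in CPC-EV, with 391 to 0, 296 to 44 and 143 to 131 counts in the CMi-EV libraries. For both ratios hiPSC-EV and CPC-EV did not overlap, and CMi-EV overlapped other groups through CMi-EV 1. The exact permutation test over 9 libraries gave p = 0.961 for the first of these ratios and p = 0.646 for the second (adjusted p = 0.961 and 0.905). Neither passed, and this rests on CMi-EV 1, since without it the adjusted p was 0.0167 for miR-200c-3p to miR-141-3p and 0.0125 for miR-200b-3p to miR-200a-3p. Over the alternatives the adjusted p of these 2 ratios ranged from 0.0167 to 0.996 and from 0.0125 to 0.996.

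Ratios of arms and of miR-429 were set by zeros. miR-429 to miR-200b-3p (exact permutation p = 0.954), miR-200b-3p to miR-200b-5p (p = 0.586) and miR-200a-3p to miR-200a-5p (p = 0.593) had adjusted p-values of 0.961, 0.905 and 0.905. In the 4 hiPSC-EV and CPC-EV libraries that had both, miR-200b-3p outnumbered miR-429 by 45.1-fold to 84.5-fold.

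**Figure D3:**
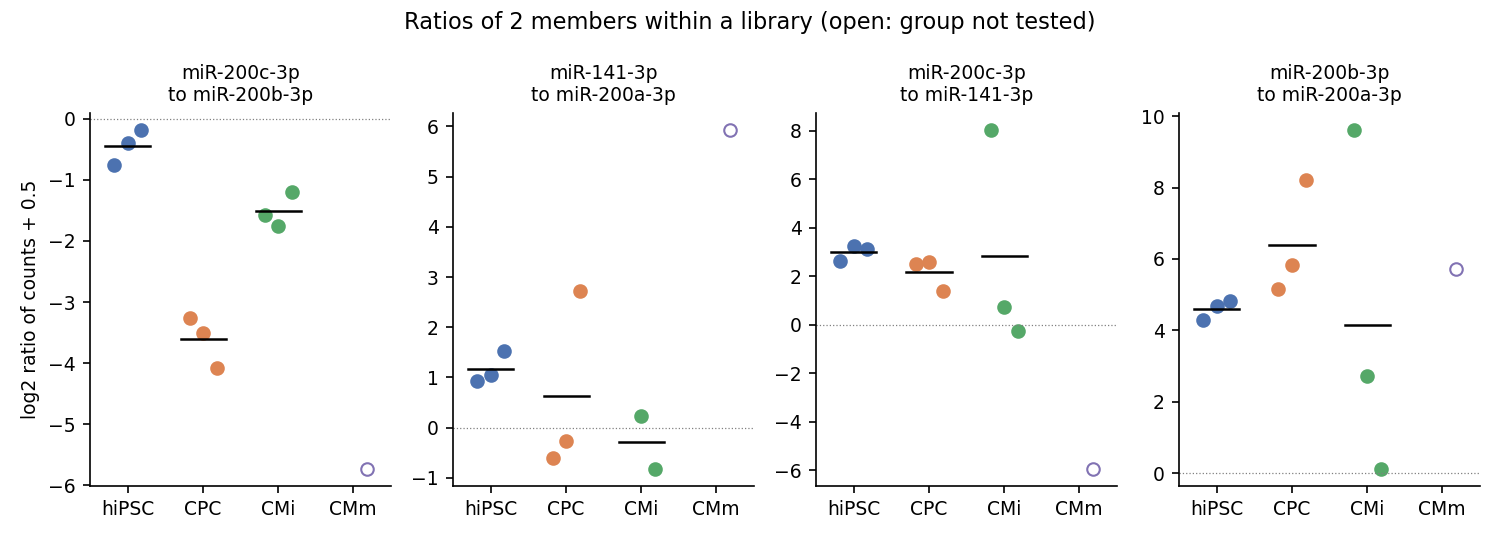
Log2 ratios of counts plus 0.5 (y axis) for 4 pairs of members in each library, by EV group (x axis), with lines for group means and open points for a group left out of the test. The ratio of miR-200c-3p to miR-200b-3p separates hiPSC-EV, CPC-EV and CMi-EV without overlap, whereas in the other ratios CMi-EV or CPC-EV overlaps another group.

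The members were also summed by seed rather than by cluster. Members with the miR-200b seed summed to 4638 ± 795 CPM in hiPSC-EV and 5630.0 ± 1941 CPM in CPC-EV, which overlapped, and made up 90.7% to 93.3% and 94.0% to 97.1% of the family's counts. Members with the miR-200a seed summed to 354 ± 57.3 CPM in hiPSC-EV and 182 ± 83.8 CPM in CPC-EV, without overlap. Both statements on overlap turn for shares of all miRNA counts, without TMM. The miR-200b seed then held 0.430% to 0.498% in hiPSC-EV and 0.622% to 0.920% in CPC-EV, without overlap. The miR-200a seed held 0.0290% to 0.0458% and 0.0151% to 0.0377%, which overlapped. By cluster, the means were 2805 ± 290 and 5393 ± 1906 CPM for the miR-200b cluster, and 2225 ± 578 and 537 ± 229 CPM for the miR-200c cluster. The whole family summed to 5030 ± 841 CPM in hiPSC-EV and 5930 ± 2124 CPM in CPC-EV, which did not differ beyond the spread between libraries. This depends on the scaling. As a share of all miRNA counts the family held 0.549%, 0.461% and 0.503% in the hiPSC-EV libraries. In the CPC-EV libraries it held 0.970%, 0.939% and 0.640%, higher and without overlap.

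From day 6 to day 15 both leading members fell. miR-200b-3p had a log2 fold change of -5.14 in CMi-EV against CPC-EV (SE 0.31, edgeR FDR 0.000305, n = 3 per group) and miR-200c-3p of -3.17 (SE 0.47, FDR 0.00341). The fall of miR-200b-3p took its mean from 5111 to 144 CPM, and the family's sum went from 5930 to 269 ± 50.7 CPM. miR-429 was at least 140.5-fold lower and miR-200b-5p at least 221-fold lower in CMi-EV, from counts pooled over the libraries of each group and set against 3 counts over a group at 0. With 1 library left out, these bounds were as low as 83.1-fold for miR-429 (without CMi-EV 1) and 71.6-fold for miR-200b-5p (without CPC-EV 2, which held 907 of its 1112 counts). miR-141-3p (log2 fold change -1.81, SE 1.47, FDR 0.425) and miR-200a-3p (-1.32, SE 1.71, FDR 0.624) were tested and not called.

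Of the 7 members 4 were tested between CMi-EV and CPC-EV, and 2 were called, both lower, where 28.4% of the 292 tested miRNA were called, 14.4% higher and 14.0% lower. Without CPC-EV 3, in which miR-429 and miR-200b-5p were at 0, both of these were called as well, making 4.

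From day 15 to day 35 miR-200c-3p fell, and most members had no counts or few in CMm-EV. miR-200c-3p fell from 280 counts over the CMi-EV libraries to 1 count over the CMm-EV libraries, a ratio of 359.5-fold with a 95% counting interval from 64.0-fold to 14250.3-fold (edgeR FDR 0.0158). That count was in CMm-EV 1, without which the group is at 0. With 1 library left out the fitted log2 fold change ranged from -9.94 to -6.84, against -7.74 with all libraries. miR-200b-3p had a log2 fold change of -4.88 (SE 1.29, FDR 0.0712) and was not called, although no library of CMm-EV reached those of CMi-EV. miR-200a-3p was at least 74.9-fold lower and miR-200a-5p at least 17.5-fold lower in CMm-EV, the latter from 41 counts in CMi-EV 3 alone. Without CMi-EV 3 the bound of miR-200a-3p was 25.1-fold, and without CMm-EV 2 the bounds were 35.3-fold and 8.27-fold. What remained in CMm-EV was 62 counts, namely 31 of miR-200b-3p, 30 of miR-141-3p and 1 of miR-200c-3p.

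Between CMm-EV and CMi-EV, 2 of the 7 members were tested and 1 was called, lower, where 16.6% of the 247 tested miRNA were called, 6.48% higher and 10.1% lower. Without CMm-EV 2, the library with the most miRNA counts and no count of the family, 20 of 254 miRNA were called in place of 41 of 247, the call went to miR-200b-3p, and miR-200c-3p had an FDR of 0.0541. Without CMi-EV 1, miR-200a-3p was called beside miR-200c-3p. Over all alternatives, the FDR ranged from 2.09e-05 to 0.108 for miR-200c-3p. For miR-200b-3p it ranged from 0.000392 to 0.215, and this member was called in 6 of 14 alternatives.

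**Figure D4:**
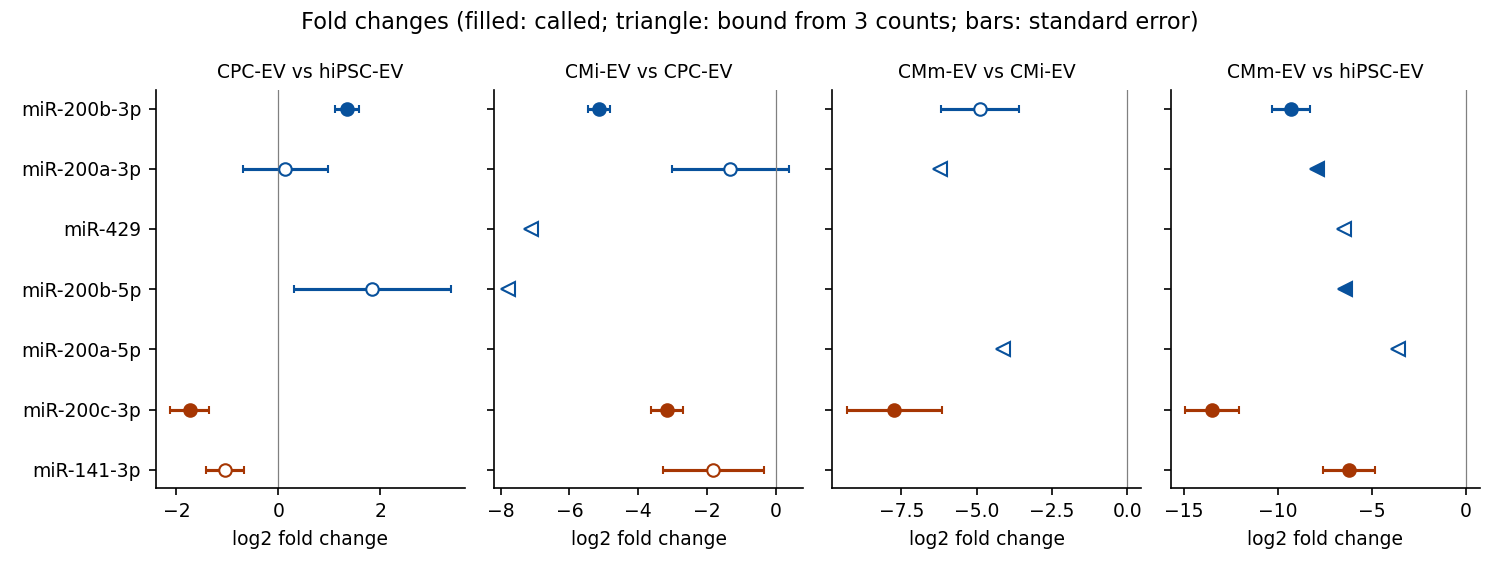
Log2 fold changes (x axis) of the 7 members (y axis) in 4 comparisons, with circles and standard errors for fitted values, filled where called, and triangles for bounds against 3 counts over a group at 0, filled where the member was called. In the first panel miR-200b-3p (1.35) and miR-200c-3p (-1.74) lie on opposite sides of 0.

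The comparison of the end points, CMm-EV with hiPSC-EV, shares its libraries with those above. All 5 members tested were lower in CMm-EV, where 53.6% of the 336 tested miRNA were called, 16.1% higher and 37.5% lower. miR-200b-3p had a log2 fold change of -9.30 (SE 1.03, edgeR FDR 0.00140) and miR-141-3p of -6.21 (SE 1.39, FDR 0.0165). miR-200c-3p went from 18037 counts over hiPSC-EV to 1 count, a ratio of 15939-fold (95% counting interval 2860.4-fold to 629603-fold, FDR 0.000112). With 1 library left out its fitted log2 fold change ranged from -15.5 to -12.5, against -13.5 with all libraries. miR-200a-3p and miR-200b-5p, at 0 in CMm-EV, were at least 244-fold and at least 84.8-fold lower (FDR 0.000992 and 0.00259). miR-429 and miR-200a-5p did not pass the filter and were at least 89.3-fold and at least 12.4-fold lower. All counts of miR-200a-5p in hiPSC-EV were in hiPSC-EV 3, and without that library the bound of miR-429 was 50.7-fold. Without CMm-EV 2 the bounds were 115.2-fold for miR-200a-3p, 39.97-fold for miR-200b-5p, 42.05-fold for miR-429 and 5.83-fold for miR-200a-5p. With a term for the replicate number miR-200b-5p was not called (FDR 0.0704, within a range of 3.01e-08 to 0.0704 over all alternatives). Without hiPSC-EV 3 the FDR of miR-141-3p was 0.0589, within a range of 4.13e-10 to 0.0589 over all alternatives. All its counts in CMm-EV were in CMm-EV 3, and with 1 library left out its log2 fold change ranged from -12.4 to -5.27.

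In a single F-test over the 4 groups, 4 of the 5 members tested passed an FDR of 0.05, where 50.7% of 367 miRNA did. The FDR was 1.98e-06 for miR-200c-3p, 4.12e-05 for miR-200b-3p, 0.0222 for miR-200b-5p, 0.0312 for miR-200a-3p and 0.0825 for miR-141-3p. The number fell to 2, miR-200b-3p and miR-200c-3p, without hiPSC-EV 1, without hiPSC-EV 3 or without CPC-EV 2. With all 12 libraries, miR-429 and miR-200a-5p did not reach the filter in any comparison, and their levels stand on counts alone.

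On the RPM scale of the authors, in which reads are scaled to library totals rather than to miRNA counts, the order of the groups was the same for both leading members. miR-200b-3p measured 1454, 1341 and 1429 RPM in hiPSC-EV, and 3525, 3828 and 2450.0 RPM in CPC-EV. miR-200c-3p measured 861, 1025 and 1259 RPM in hiPSC-EV, and 368, 338 and 145 RPM in CPC-EV. Scaled to these library totals, a choice added after seeing the data, miR-141-3p was also called lower in CPC-EV (log2 fold change -1.16, FDR 0.0453, within a range of 0.00705 to 0.760 over all alternatives).

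The miRNA outside the family whose levels over the 12 libraries were most like those of each cluster were looked up among 362 candidates. The libraries fall into 4 groups, so that r mainly describes the group means. For the miR-200b cluster the highest Pearson's r on log2(CPM + 1) were those of miR-371a-5p (0.974), miR-302a-5p (0.972), miR-320c (0.970), miR-302c-3p (0.968) and miR-302d-3p (0.961). For the miR-200c cluster they were those of miR-302c-3p (0.987), miR-183-5p (0.986), miR-182-5p (0.977), miR-302c-5p (0.969) and miR-296-3p (0.968). The miR-371 and miR-302 clusters are known from pluripotent cells, and miR-183-5p and miR-182-5p, which share a cluster, from sensory and other epithelia. miR-371a-5p measured 1118 ± 445 CPM in hiPSC-EV and 1108 ± 125 CPM in CPC-EV before it went to 101 ± 21.2 CPM in CMi-EV, whereas miR-183-5p already went from 42697 ± 20503 to 10117 ± 1924 CPM between hiPSC-EV and CPC-EV. The summed levels of the 2 clusters themselves had a Pearson's r of 0.952 and a Spearman's rho of 0.804 over the 12 libraries.

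The family was set beside 10 other miRNA known from epithelia, all of which were in the table. Between CPC-EV and hiPSC-EV, 8 were tested, 2 rose and 3 fell, where 11.5% of all tested miRNA rose and 16.0% fell, with a median log2 fold change of -0.96 against -0.27 for all tested miRNA. The 3 that fell, miR-183-5p, miR-182-5p and miR-96-5p, belong to the same cluster. miR-375-3p, known from endocrine and gut epithelium, rose like miR-200b-3p but by more (log2 fold change 6.32, SE 0.40, FDR 0.000482), and miR-192-5p, known from gut and liver, rose by 1.05 (SE 0.23, FDR 0.0130). The call of miR-192-5p was lost in 5 of 14 alternatives, among them those without hiPSC-EV 1 (log2 fold change 0.88), without hiPSC-EV 2 (FDR 0.0531) and without CPC-EV 3 (FDR 0.0534), and its FDR ranged from 2.61e-07 to 0.110. miR-183-5p (-1.64, SE 0.30, FDR 0.00694) and miR-182-5p (-1.44, SE 0.25, FDR 0.00568) fell like miR-200c-3p. From CPC-EV to CMi-EV 5 of 7 fell and none rose, where 14.0% fell and 14.4% rose (median -2.91 against -0.05), among them miR-375-3p (-3.09) and miR-183-5p (-3.01). From CMi-EV to CMm-EV 4 of 8 fell and 1 rose, where 10.1% fell and 6.48% rose (median -3.23 against -0.30), and between the end points 5 of 9 fell and 1 rose, where 37.5% of all tested miRNA fell and 16.1% rose, with a median of -7.36, or -5.83 with groups at 0 set to their bound, against -1.53.

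The same libraries hold fragments of messenger RNA, assigned to gencode genes, and so show the transcripts that the family is known to act on. Counts of gencode transcripts ranged from 131423 to 1908539 per library, spread over 39666 features, so single genes have few counts. ZEB2 had no counts in hiPSC-EV, 45, 41 and 80 counts in CPC-EV, and none in CMi-EV or CMm-EV. It rose in CPC-EV by at least 26.6-fold (edgeR FDR 0.0296) and was at least 19.8-fold lower in CMi-EV, bounds that were 14.2-fold without hiPSC-EV 3 and 11.3-fold without CMi-EV 1. ZEB1 also had no counts in hiPSC-EV, and had 57, 73 and 0 counts in CPC-EV, 0, 22 and 0 for CMi-EV and 13, 0 and 0 for CMm-EV, at least 20.8-fold more in CPC-EV than in hiPSC-EV (11.1-fold without hiPSC-EV 3), without passing the filter. Both were thus found in the EV group in which miR-200b-3p was highest. CDH1 had 0, 19 and 16 counts in hiPSC-EV and 11, 33 and 0 in CPC-EV, and none in the later groups.

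Of 22 epithelial genes 18 were in the table, and 7 were tested between CPC-EV and hiPSC-EV. The single call was SPINT2, a protease inhibitor of epithelia, at least 26.4-fold lower in CPC-EV (FDR 0.0213), a bound of 14.3-fold without CPC-EV 2. Of 3056 tested features 11.0% were called, 4.45% higher and 6.58% lower. In CMi-EV SPINT2 had 58 counts, all of them in CMi-EV 1. The list's median log2 fold change was -1.24 against 0.11 for all tested features. Its 2 most abundant genes in CPC-EV pointed the other way without passing the test, as did KRT19 (log2 fold change 2.51, SE 1.17, FDR 0.254), and the list's summed level was 357 ± 129 CPM in hiPSC-EV and 499 ± 155 CPM in CPC-EV. The desmosomal gene DSP had a log2 fold change of 2.22 (SE 1.04, FDR 0.256) and the keratin gene KRT8 of 2.59 (SE 1.06, FDR 0.197). Of the 18 genes, 6, 13 and 16 had counts in the hiPSC-EV libraries, the last being the deepest, and 6, 9 and 6 in those of CPC-EV, and such numbers depend on depth. RAB25 was at 0 in all libraries.

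Between CMm-EV and hiPSC-EV, 3 of the 7 epithelial genes tested fell (EPCAM, CLDN6 and SPINT2) and none rose, where 50.8% of 2153 features were called, 7.29% higher and 43.5% lower. EPCAM, an adhesion molecule of epithelia and pluripotent cells, had 2, 18 and 39 counts in hiPSC-EV and none in CMi-EV or CMm-EV, at least 11.2-fold lower (6.03-fold without CMm-EV 2 and 7.12-fold without hiPSC-EV 3). The list's median of -1.26 lay above that of all features, -2.18. Without hiPSC-EV 1, 6 epithelial genes were called between these groups in place of 3, and without hiPSC-EV 2, hiPSC-EV 3 or CPC-EV 3 the call of SPINT2 in CPC-EV was lost.

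Of 22 mesenchymal genes 18 were in the table. Between CPC-EV and hiPSC-EV 3 of 7 rose, namely ZEB2, the intermediate filament gene VIM (log2 fold change 5.27, SE 0.94, FDR 0.0213) and the matrix gene FN1 (2.79, SE 0.66, FDR 0.0406), with a median of 1.66 against 0.11, where 4.45% of all tested features rose. ZEB2 and VIM passed the filter only through CPC-EV, where they are high, so this count and median are partly fixed by the filter. FN1 kept its call in 3 of 12 alternatives only (FDR 0.000614 to 0.304) and lost it without hiPSC-EV 2 and without each CPC-EV library in turn, and ZEB2 kept its call in 6 of 12. The calls of this list and that of SPINT2 rest on hiPSC-EV 3 and CPC-EV 3, as without either library no gencode feature passed the edgeR test between these groups (782 and 997 had an unadjusted p below 0.05), while with 1 library left out the log2 fold change was 4.82 to 6.85 for VIM and 2.44 to 3.83 for FN1. VIM had 0, 7 and 2 counts in hiPSC-EV, 237, 411 and 127 in CPC-EV, 3, 12 and 9 for CMi-EV and 19, 0 and 5 for CMm-EV. VIM and ZEB2 were thus highest in CPC-EV. The list's summed level was 270 ± 118 CPM in hiPSC-EV, 1178 ± 58.4 CPM in CPC-EV, 880 ± 185 CPM for CMi-EV and 393 ± 189 CPM for CMm-EV. In the list as a whole, CMi-EV thus also lay above hiPSC-EV. The family was at its lowest in CMm-EV, and its relation to these genes was not tested. Between CMm-EV and hiPSC-EV, 1 of the 2 mesenchymal genes tested fell (SPARC), where 43.5% of all features did.

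**Figure D5:**
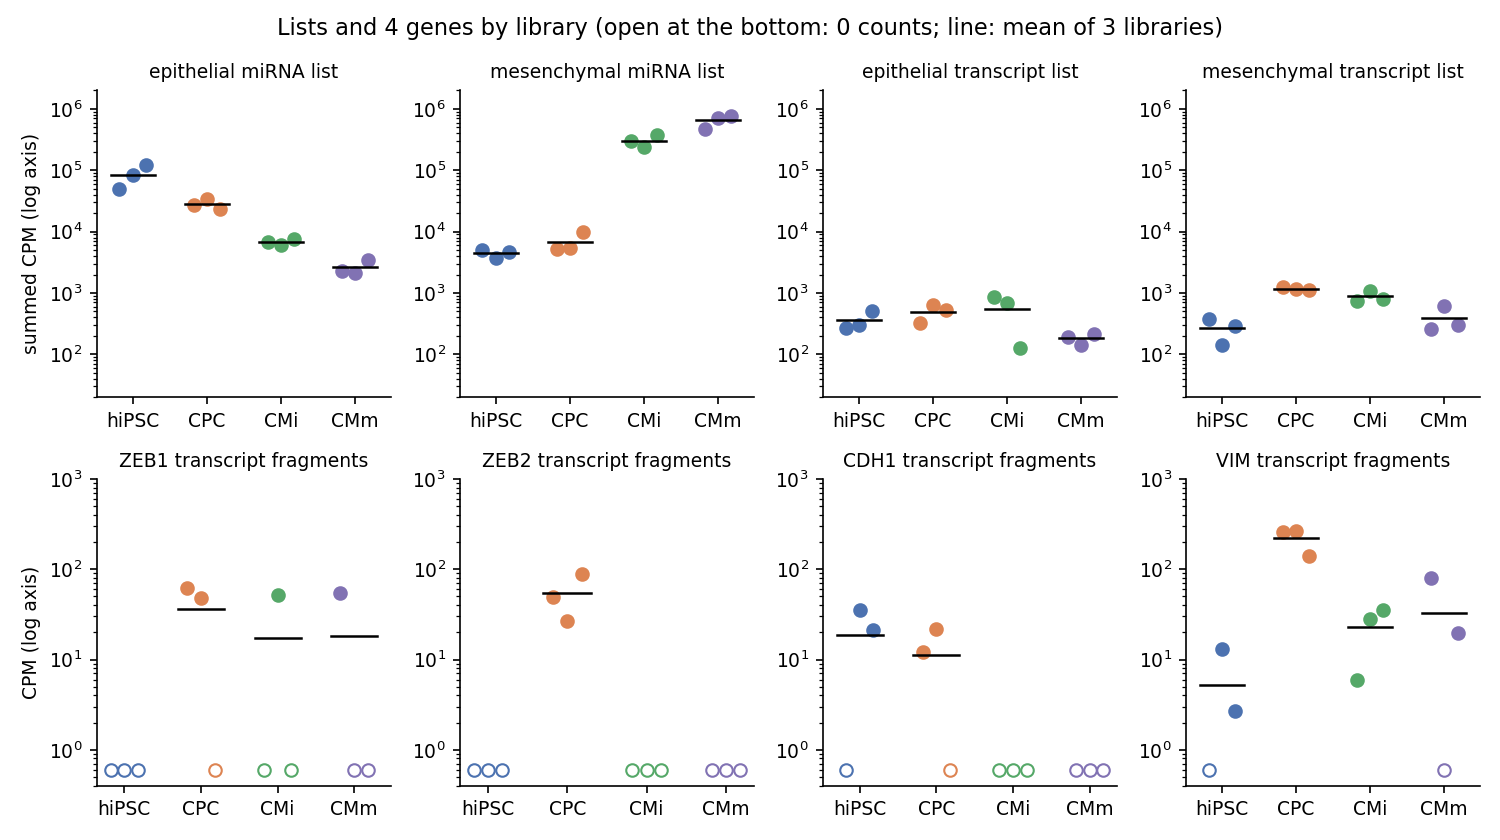
Summed levels of the epithelial and mesenchymal miRNA and transcript lists (top, summed CPM on a log axis) and levels of ZEB1, ZEB2, CDH1 and VIM transcript fragments (bottom, CPM on a log axis) per library, by EV group, with open points for 0 counts and lines for means of 3 libraries. ZEB2 has counts in the 3 CPC-EV libraries alone, and VIM is highest there.

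Markers of other cell types moved with these groups. Of 6 miRNA known from endoderm and liver, 3 of which (miR-375-3p, miR-192-5p and miR-194-5p) are also among the epithelial miRNA, 5 rose in CPC-EV against hiPSC-EV, where 11.5% of all tested miRNA did, and the median log2 fold change was 6.81 against -0.27. miR-122-5p, miR-483-3p and miR-483-5p, nearly absent from hiPSC-EV, passed the filter only through CPC-EV. This count and median are therefore partly fixed by the filter. Summed levels do not depend on it. The 6 miRNA summed to 1302, 1822 and 2256 CPM in hiPSC-EV, 7212, 9033 and 6651 CPM in CPC-EV, then 4036, 3673 and 10385 CPM for CMi-EV and 2795, 2362 and 4514 CPM for CMm-EV. The most abundant was miR-375-3p in CPC-EV and miR-192-5p in the other groups. Of 14 endoderm transcripts 4 were in the table, none passed the filter, and defining genes such as SOX17, FOXA2, TTR and ALB were not among them. APOB, the most abundant in CPC-EV and CMi-EV, had 0, 60 and 111 counts in CPC-EV and 0, 0 and 33 in CMi-EV. The part of endoderm-like cells in the level of miR-200b-3p in CPC-EV was not tested.

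Pluripotency transcripts summed to 736, 1147 and 1288 CPM in hiPSC-EV, to 266, 401 and 539 CPM in CPC-EV, to 137, 25.6 and 11.8 CPM for CMi-EV and to 4.18, 42.7 and 3.97 CPM for CMm-EV, with LIN28A the most abundant in all groups but CMm-EV, where NANOG was. All 10 were found in hiPSC-EV, NANOG and TERT were at 0 in CPC-EV, and 7 were at 0 in CMi-EV and 7 in CMm-EV. Between CPC-EV and hiPSC-EV 2 of 8 fell, where 6.58% of all tested features did, and between CMm-EV and hiPSC-EV 7 of 8 fell, where 43.5% did. NANOG in the first comparison, and POU5F1, LIN28A, DPPA4, TDGF1 and DNMT3B in the second, were at 0 in the later group. They passed the filter only through hiPSC-EV. In CMm-EV 1 a single gene of the list had counts, so in the second comparison all tested genes but at most 1 passed only through hiPSC-EV. The count of the first comparison is thus partly fixed by the filter, and that of the second largely. Without hiPSC-EV 3 or without CPC-EV 3 the calls of the first comparison were lost. The means of the summed levels have the order of those of miR-200c-3p, although libraries of CMi-EV and CMm-EV overlapped, and LIN28A had a log2 fold change of -0.14 (SE 0.57, edgeR FDR 0.900) between CPC-EV and hiPSC-EV. The part of remaining pluripotent cells in the levels of the family was not tested.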

How the data were processed

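Expected counts per feature in the tables deposited by the authors came from their exceRpt runs on hg38, and were rounded to whole numbers here. None of the family's values changed by rounding. RPM deposited by the authors, reads scaled to library totals, gave these totals. All 12 libraries were used, as 4 EV groups of 3 independent cultures, and the vesicle and cell assays were not used here. Levels of miRNA and of gencode transcripts were normalized by TMM within each class. Pairs of groups were tested with quasi-likelihood fits of edgeR 4.0.16 (R 4.3.3), two-sided, each scaled within its 6 libraries, with Benjamini-Hochberg adjustment over all tested features. Standard errors came from the fit. The miRNA filter and thresholds applied to gencode features as well. Ratios used counts plus 0.5, libraries with at least 10 counts of the pair, and exact permutation over libraries. Binomial intervals are Clopper-Pearson.

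Members and the 10 lists (epithelial, mesenchymal, endoderm and blood miRNA, and epithelial, mesenchymal, pluripotency, cardiomyocyte, cardiac mesoderm and endoderm transcripts) were chosen with earlier results of these data known. Genes were named by rule, as all members, the 5 miRNA most like each cluster, and up to 4 genes per list with the highest mean CPM besides ZEB1, ZEB2 and CDH1. Other genes were named after their values were seen. Alternatives were other scaling (that to the authors' totals chosen after seeing the data), filters, tests (DESeq2 1.42.0) and dispersions, a term for the replicate number, other pseudocounts and count minimums, and each library left out once. The fits were checked on simulated data. Python 3.11.15, numpy 2.4.6, pandas 2.3.3, scipy 1.17.1 and matplotlib 3.10.9 gave tables, tests and figures.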

Additional observations from a re-analysis of the deposited data

How the results depend on the processing

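miR-200b-3p was higher (log2 fold change 1.21 to 1.60) and miR-200c-3p lower (-1.93 to -1.36) in CPC-EV than in hiPSC-EV under all 14 alternatives run, and the ratio of the pair kept its direction and call in all 15. Over 16 results for members in 224 fits, 205 kept direction and call, 7 lost a call, 8 gained a call and 4 reversed. Over 28 results for genes of the lists in 368 fits, 327 kept both, 39 lost a call, 2 gained one and 0 reversed. The reversals were those of miR-200a-3p in CPC-EV against hiPSC-EV, at -0.0153 with the authors' library totals (chosen after seeing the data) and -0.37 with the replicate block, and from -0.39 to 0.72 with 1 library left out, below 0 without hiPSC-EV 2 and without CPC-EV 1 (0.13 in the report). Scaling moved the median log2 fold change of all miRNA from -0.27 to -0.10 with library size only in CPC-EV against hiPSC-EV, from -0.05 to -0.52 in CMi-EV against CPC-EV, from -0.30 to -0.91 in CMm-EV against CMi-EV and from -1.53 to -1.97 in CMm-EV against hiPSC-EV. In the third of these, the share of higher among called miRNA went from 39.0% to 19.2%. Of all gencode features, the median in CPC-EV against hiPSC-EV moved from 0.11 to 1.04.

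Members called in CPC-EV against hiPSC-EV were 1 in place of 2 with dispersions from all 12 libraries. In CMi-EV against CPC-EV they were 4 in place of 2 with no filter, and 2 to 4 with 1 library left out (4 without CPC-EV 3). In CMm-EV against CMi-EV they were 2 in place of 1 with library size only, DESeq2, the authors' library totals or dispersions from all 12 libraries, 3 with no filter, 0 with filterByExpr of edgeR (FDR of miR-200c-3p 0.0718), and 1 to 2 with 1 library left out. Members differing over the 4 groups were 2 to 5 with 1 library left out. Left-out libraries moved the difference between CPC-EV and hiPSC-EV in log2 ratios from -1.60 to 0.0680 (without CPC-EV 1) for miR-141-3p to miR-200a-3p, from -1.04 to -0.44 for miR-200c-3p to miR-141-3p, from 0.89 to 2.42 for miR-200b-3p to miR-200a-3p, from -2.43 to 2.35 (without CPC-EV 3) for miR-429 to miR-200b-3p and from -0.83 (without CPC-EV 3) to 3.79 for miR-200b-3p to miR-200b-5p. The causes were not tested.

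Epithelial transcripts called in CPC-EV against hiPSC-EV were 1, but 2 with library size only or DESeq2 (KRT8 added, higher), 0 with no filter or filterByExpr, and 0 to 1 with 1 library left out. In CMm-EV against hiPSC-EV they were 3, but 0 with no filter or filterByExpr, and 3 to 6 with 1 library left out (6 without hiPSC-EV 1). Of all gencode features, 337 were called in CPC-EV against hiPSC-EV, 683 with DESeq2, 518 with library size only (67.8% higher in place of 40.4%), 62 with no filter and 0 with filterByExpr of edgeR (371 at an unadjusted p below 0.05). Without hiPSC-EV 3 or CPC-EV 3 it was also 0 (782 and 997 at an unadjusted p below 0.05), so all gencode calls between these groups rest on these libraries. These include the calls of ZEB2, VIM, FN1 and SPINT2, whose direction was kept, and those of pluripotency, cardiomyocyte and cardiac mesoderm transcripts. With 1 library left out the log2 fold change was 4.82 to 6.85 for VIM (5.27 in the report) and 2.44 to 3.83 for FN1 (2.79). In CMm-EV against hiPSC-EV 1093 were called, 153 with filterByExpr, 68 with no filter and 2262 without hiPSC-EV 1.

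A replicate block takes libraries of 1 number as pairs. Over 18 such pairs r was -0.121 to 0.0989, and 12 of 36 checks put a library closest to its own number. No deviation shared by number was thus seen. This cannot tell whether the numbers mark pairs, since paired libraries need not share a deviation. With the block, members called were 1 in CPC-EV against hiPSC-EV (FDR of miR-200c-3p 0.0898), 0 in CMm-EV against CMi-EV (0.108) and 2 over the 4 groups, and epithelial transcripts called in CPC-EV against hiPSC-EV were 0, as were all gencode features (592 at an unadjusted p below 0.05). Calls among all miRNA went from 93 to 39, from 83 to 69, from 41 to 17 and from 180 to 137 in the order of the comparisons. With 3 libraries per group and 62 family counts in CMm-EV, 56 of them in CMm-EV 3, statements on that group rest on few counts. Zeros in CPC-EV 3 and CMi-EV 1, 1 cell line, and media that changed with the stage limit the other groups.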

Other observations

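Of 12 miRNA known from mesenchymal cells, all were in the table. Their summed level was 4434 ± 618 CPM in hiPSC-EV, 6824 ± 2639 CPM in CPC-EV, 305790 ± 67395 CPM for CMi-EV and 655535 ± 159446 CPM for CMm-EV. The most abundant was miR-143-3p in CPC-EV and miR-100-5p in the other groups. Between CPC-EV and hiPSC-EV 2 of 8 rose and 1 fell, where 11.5% of all tested miRNA rose and 16.0% fell (median log2 fold change 0.02 against -0.27), with miR-143-3p at 3.69 (SE 0.39, edgeR FDR 0.000909), miR-125b-5p at 2.11 (SE 0.39, FDR 0.00769) and miR-100-5p at 0.53 (SE 0.31, FDR 0.266). Between CMi-EV and CPC-EV 5 of 8 rose and none fell, where 14.4% rose and 14.0% fell (median 2.63 against -0.05), and miR-100-5p rose by 6.75 (SE 0.31, FDR 0.000198). Between CMm-EV and CMi-EV 2 of 8 rose, where 6.48% did (median 0.54 against -0.30), and between CMm-EV and hiPSC-EV 7 of 9 rose and 1 fell, where 16.1% rose and 37.5% fell (median 4.52 against -1.53).

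Cardiomyocyte transcripts summed to 81.8 ± 51.9 CPM in hiPSC-EV, 1362 ± 260.0 CPM in CPC-EV, 12983 ± 1429 CPM for CMi-EV and 10796 ± 1668 CPM for CMm-EV, led by TTN. All 3 tested rose between CPC-EV and hiPSC-EV, where 4.45% of all features did, and all 10 tested between CMm-EV and hiPSC-EV, where 7.29% did, whereas TNNI3 was at 0 in the 3 later groups. TNNI1, MYL7, MYL4, ACTN2 and MYBPC3, at 0 in hiPSC-EV, passed the filter only through CMm-EV and so had to be higher there. In hiPSC-EV 1 a single gene of the list had counts. In each comparison, all tested genes but at most 1 thus passed only through the later group. These counts of calls are therefore largely fixed by the filter. Cardiac mesoderm transcripts, of which 8 of 10 were in the table, without ISL1 and NKX2-5, summed to 44.8 ± 8.57, 206 ± 147, 182 ± 32.1 and 113 ± 91.5 CPM in the same order of groups. The highest mean was that of KDR in hiPSC-EV, HAND2 in CPC-EV and CMm-EV, and GATA4 in CMi-EV. GATA4 and HAND2, 2 of the 3 tested and both at 0 in hiPSC-EV, rose in CPC-EV, where 4.45% of all features did. Without hiPSC-EV 3 or without CPC-EV 3 these calls were lost, as were those of cardiomyocyte transcripts between CPC-EV and hiPSC-EV. miRNA known from blood, of which 4 of 5 were in the table, summed to 7046 ± 1691, 983 ± 152, 1621 ± 773 and 826 ± 52.3 CPM, nearly all from miR-486-5p, which fell by 2.43 on the log2 scale in CPC-EV against hiPSC-EV. The means of miR-451a (3.16 and 23.8 CPM) and miR-144-3p (0 and 3.47 CPM) were higher in CPC-EV than in hiPSC-EV. That of miR-150-5p was lower (27.1 and 0 CPM), and none of these passed the filter. The part of these lists in the levels of the family was not tested.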
